A study of Mus musculus with 8 samples.

Results

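The genes described here are 10 genes of the negative feedback on the ERK pathway. They are the mitogen-activated protein (MAP) kinase phosphatases Dusp1, Dusp2, Dusp4, Dusp5, Dusp6 and Dusp10, the Sprouty genes Spry1 and Spry2, and the Spred genes Spred1 and Spred2. They were taken by gene symbol from a table of 55487 mouse genes, and all 10 were found. The set was selected on the measured difference of Dusp6 between the 2 groups of libraries, so each difference between the groups given below for these genes is a description and supports nothing by itself.

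ERK is the last kinase of a relay in which an activated receptor switches on the GTPase Ras, and kinases below Ras, MEK the last of them, pass phosphate groups on to ERK. Active ERK induces genes whose products turn the relay down again: DUSP phosphatases remove the phosphates from MAP kinases, Sprouty proteins interfere between the receptor and these kinases, and Spred proteins bring neurofibromin to the membrane, where it switches Ras off. In developing B cells the relay works downstream of the pre-B cell receptor and of cytokine receptors. CD25, encoded by Il2ra, is the chain of the receptor for interleukin-2 that raises its affinity for the cytokine.

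The study set CD25-deficient against CD25-sufficient pro-B cells, an early stage of B cell development, by RNA sequencing. The libraries were 4 labelled CD25 KO and 4 labelled WT (wild type), from mice; strain, age, sex, the knockout allele and any treatment were not given in the labels. The labels do not state whether each library is a different mouse, so the tests rest on the spread between libraries alone, part of which may be technical. Total counts were 48637424 to 55730608 per library labelled CD25 KO and 43974037 to 57988772 per WT library. Levels are given in CPM, counts scaled to a common library size, after normalisation for library composition.

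Several measurements on the libraries stand beside every result. Il2ra itself averaged 181 ± 43.1 CPM in libraries labelled CD25 KO and 193 ± 35.9 CPM in WT libraries (SD, n = 4 each), with a log2 fold change of -0.09 ± 0.19 (SE) and an adjusted p of 0.849 by edgeR's quasi-likelihood test. The counts cover the whole gene, so a deletion of part of it that leaves the transcript would not be seen, and the groups are called here by their labels. Markers of the B lineage were high in all libraries, with Cd79a, a signalling chain of the B cell receptor, at 1854 to 2445 CPM in libraries labelled CD25 KO and 1753 to 2213 CPM in WT libraries. Of 15 pro-B cell markers 5 were higher and 10 lower, none of them called by edgeR. Among the lower, Igll1 and Vpreb1, the surrogate light chain genes, had log2 fold changes of -0.91 ± 0.40 and -0.86 ± 0.38, and Dntt, which adds bases at receptor gene joints, -0.91 ± 0.50. Kit, a receptor that marks pro-B cells, was at 0.701 to 1.69 CPM in libraries labelled CD25 KO and 0.896 to 3.20 CPM in WT libraries, which is low for that label. The summed level of 10 erythroid marker genes was 269 to 2285 CPM in libraries labelled CD25 KO and 2902 to 8646 CPM in WT libraries, without overlap. Y-linked transcripts marked libraries 2 and 4 labelled CD25 KO and WT library 2, and the last of these also held Xist at 60.02 CPM. In bulk RNA, fewer cells of a type and less RNA per cell cannot be told apart.

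Promoter sequences from RefSeq (GRCm38.p6) were at hand for 9 of the 10 genes, Dusp4 being the exception. Those of 4 phosphatase genes are shown, from 250 bases before to 50 bases after the start: Dusp6 and Dusp2 because their levels did not overlap between the groups, and Dusp1 and Dusp5 because they hold a motif of stimulus-induced genes, given in capitals. The windows are chr10:99262981-99263280 on the plus strand for Dusp6, chr2:127335909-127336208 on the plus strand for Dusp2, chr17:26508423-26508722 on the minus strand for Dusp1 and chr19:53528895-53529194 on the plus strand for Dusp5.
Dusp6: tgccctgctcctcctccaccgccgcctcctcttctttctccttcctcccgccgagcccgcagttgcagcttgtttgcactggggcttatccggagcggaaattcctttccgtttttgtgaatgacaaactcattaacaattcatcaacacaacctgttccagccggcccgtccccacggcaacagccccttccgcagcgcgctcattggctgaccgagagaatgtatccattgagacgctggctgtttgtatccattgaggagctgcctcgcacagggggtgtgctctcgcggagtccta
Dusp2: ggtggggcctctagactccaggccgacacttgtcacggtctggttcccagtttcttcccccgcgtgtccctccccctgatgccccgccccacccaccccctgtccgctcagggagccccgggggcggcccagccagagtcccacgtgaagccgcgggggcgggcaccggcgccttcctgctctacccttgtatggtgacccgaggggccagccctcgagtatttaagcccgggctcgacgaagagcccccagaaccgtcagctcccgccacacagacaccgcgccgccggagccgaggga
Dusp1: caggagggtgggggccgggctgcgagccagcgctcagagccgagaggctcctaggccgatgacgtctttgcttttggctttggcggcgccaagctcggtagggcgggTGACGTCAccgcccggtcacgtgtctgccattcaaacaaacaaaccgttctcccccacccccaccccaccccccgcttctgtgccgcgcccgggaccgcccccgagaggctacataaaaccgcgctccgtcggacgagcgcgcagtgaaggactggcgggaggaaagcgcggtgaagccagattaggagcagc
Dusp5: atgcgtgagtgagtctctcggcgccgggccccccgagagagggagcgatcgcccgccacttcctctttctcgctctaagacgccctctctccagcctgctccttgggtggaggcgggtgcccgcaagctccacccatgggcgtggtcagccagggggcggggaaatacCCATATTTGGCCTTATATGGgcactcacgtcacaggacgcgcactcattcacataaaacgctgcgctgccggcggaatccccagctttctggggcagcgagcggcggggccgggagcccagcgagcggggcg

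The capitals in the Dusp1 promoter are the cyclic AMP response element TGACGTCA, at position -143 from the start. Those in the Dusp5 promoter are adjoining CArG boxes, the motif of serum response factor, at positions -82 and -72. Searched on both strands, TGACGTCA was found in 1 of the 9 promoters, against 1.79% of 32851 promoters of the same length, and the CArG box in 1 of 9, against 1.63%. The ETS motif CCGGAA was found in 1 of 9, in Spry2, against 14.9% of all promoters. The AP-1 motif TGACTCA was in 0 of 9, against 5.2%, and the STAT motif TTCNNNGAA in 0 of 9, against 8.3%. The Dusp6 and Dusp2 windows held none of these 5 motifs. A match is only a run of letters, and its absence here says nothing of the factor.

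Per kilobase of exon, so that genes can be set beside each other, Dusp6 had the highest level of the 10 genes, at 62.6 CPM per kb over the 8 libraries, above 94.0% of all genes tested. Dusp10 followed at 18.6 CPM per kb, Dusp2 at 16.9 and Dusp5 at 5.13. Spry2 was at 1.10 CPM per kb, Dusp1 at 0.530, Spred1 at 0.438, Spred2 at 0.413, Spry1 at 0.126 and Dusp4 at 0.0450. Ranges over the 8 libraries did not overlap between Dusp6 and Dusp10, between Dusp2 and Dusp5, or between Dusp5 and Spry2. All other neighbours in this order overlapped over the libraries as a whole, though within each of the 8 libraries Spry2 was above Dusp1 and Dusp4 was the lowest. Dusp6 made up 63.6 ± 1.85% of the summed level per kilobase of the 10 genes in libraries labelled CD25 KO and 51.1 ± 7.28% in WT libraries (SD, n = 4 each). The sum of the other 9 genes was 47.3, 41.6, 59.8 and 40.4 CPM per kb in libraries 1 to 4 labelled CD25 KO, against 39.3, 42.5, 40.5 and 34.8 in WT libraries 1 to 4, and these ranges overlapped.

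**Figure D1:**
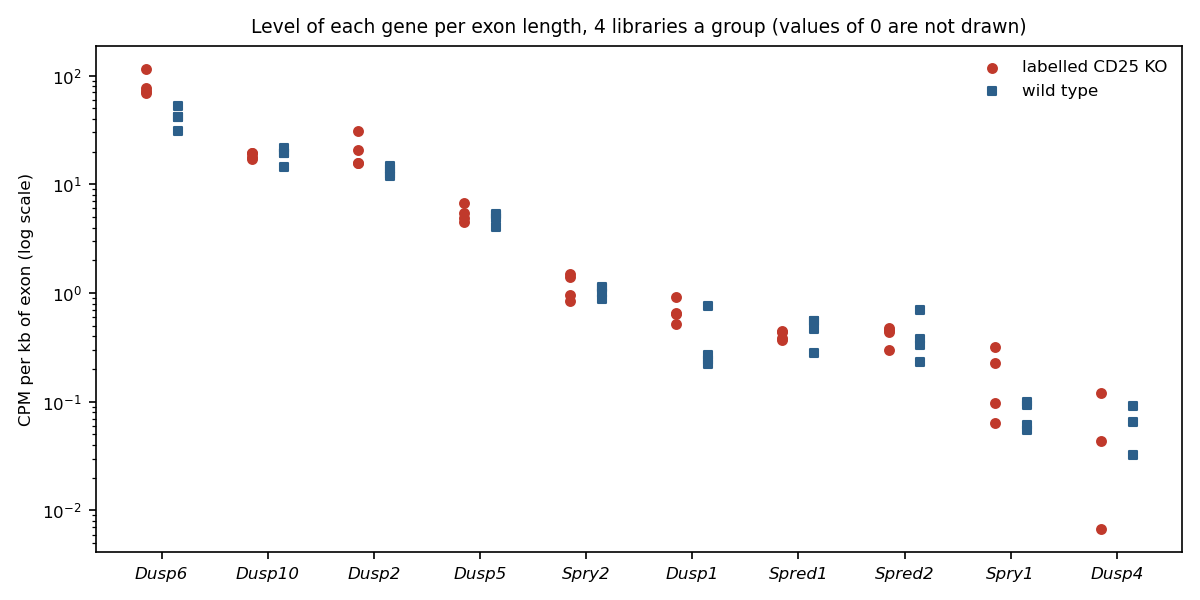
Level of each of the 10 genes in CPM per kilobase of exon (log axis), with libraries labelled CD25 KO beside WT libraries, n = 4 each. Dusp6, at a mean of 62.6 CPM per kb, stands above the other 9 genes, and Dusp4, at 0.0450, has the lowest mean; its values of 0, in 1 library of each group, are not drawn.

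Dusp6 encodes the cytoplasmic phosphatase that acts on ERK and hardly on the other MAP kinases, and it is widely used as a readout of ERK activity. The gene lies at chr10:99263231-99267489 on the plus strand (mm10), with 3132 exon bases. Its level was 242.5, 215, 364 and 226 CPM in libraries 1 to 4 labelled CD25 KO, against 131, 96.7, 132 and 163 CPM in WT libraries 1 to 4. Library 3 labelled CD25 KO was the highest and WT library 2 the lowest, and every library labelled CD25 KO was above every WT library. The means were 262 ± 69.1 and 131 ± 27.0 CPM (SD, n = 4 each), labelled CD25 KO first, and their ratio was 2.005. The log2 fold change was 1.003 ± 0.20 (SE), with a 95% interval of 0.56 to 1.45. Among the libraries with Y-linked transcripts, Dusp6 was at 215 and 226 CPM where labelled CD25 KO and at 96.7 CPM in WT. Among the others it was at 242.5 and 364 CPM where labelled CD25 KO and at 131, 132 and 163 CPM in WT. The part of sex in this difference was not tested.

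**Figure D2:**
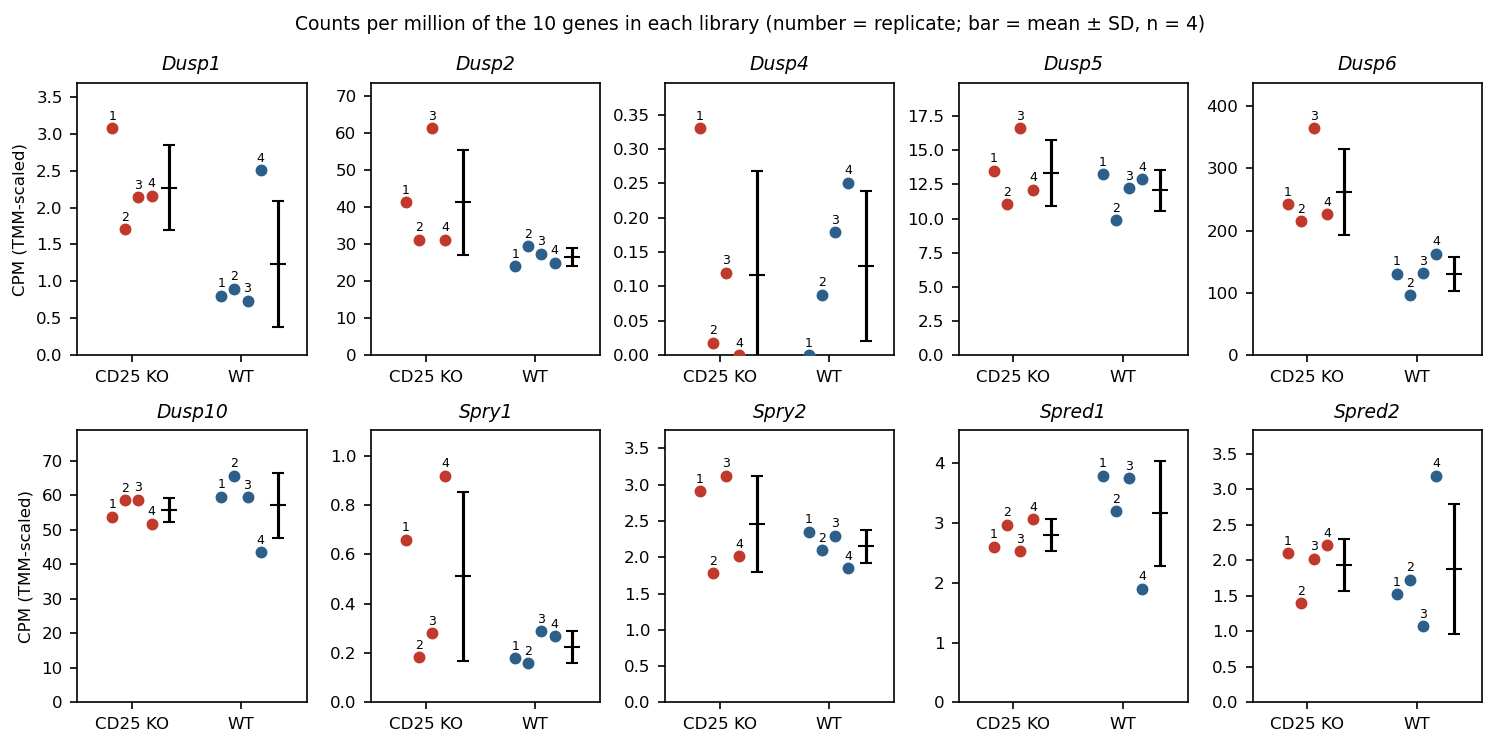
CPM of each of the 10 genes in every library, 1 panel per gene with its own axis from 0, libraries labelled CD25 KO on the left and WT on the right; numbered points are libraries and bars the mean ± SD (n = 4 each), cut at 0 for Dusp4. The groups are apart for Dusp6 and Dusp2 and overlap for the other 8 genes.

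Dusp2, Dusp1, Dusp4 and Dusp5 encode the nuclear phosphatases that are induced when cells are stimulated. Dusp2, also known as PAC-1, was first found in activated lymphocytes and lies at chr2:127336159-127338376 (plus strand). It was at 41.3, 31.3, 61.4 and 31.3 CPM in libraries 1 to 4 labelled CD25 KO, against 24.0, 29.4, 27.4 and 25.1 CPM in WT libraries 1 to 4. All 4 libraries labelled CD25 KO were above all WT libraries, library 3 by far and libraries 2 and 4 by a small margin. The log2 fold change was 0.64 ± 0.21, with a 95% interval of 0.16 to 1.12. Without library 3 labelled CD25 KO it was 0.39.

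Dusp1 encodes a phosphatase of JNK and p38 as well as ERK and is an immediate early gene, one that cells induce within minutes of a stimulus. It was at 3.07, 1.70, 2.14 and 2.16 CPM in libraries 1 to 4 labelled CD25 KO, against 0.807, 0.899, 0.736 and 2.51 CPM in WT libraries 1 to 4. WT library 4 was higher than 3 of the 4 libraries labelled CD25 KO, and the other WT libraries were lower than all 4. The log2 fold change was 0.87 ± 0.41, with a 95% interval of -0.06 to 1.79, and without WT library 4 it was 1.47 ± 0.28. The counts behind these values were 93 to 149 in libraries labelled CD25 KO and 33 to 140 in WT libraries.

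The counted Dusp1 model spans chr17:26505590-26562128 on the minus strand, and 661 of its 3311 exon bases (19.96%) lie upstream of the RefSeq start. The model overlaps Ergic1 on the opposite strand and shares 11 exon bases with it. Ergic1 encodes a protein of the traffic between the endoplasmic reticulum and the Golgi. Ergic1 had 501, 512, 378 and 630 counts in libraries 1 to 4 labelled CD25 KO, against 258, 253, 279 and 687 in WT libraries 1 to 4, so it too was high in WT library 4. The pseudogene Gm8225, also on the opposite strand, overlaps the model but shares 0 exon bases with it. It had 1998, 1943, 1478 and 2169 counts in libraries 1 to 4 labelled CD25 KO, against 890, 834, 1091 and 3259 in WT libraries 1 to 4. The reads were counted with no strand option recorded, and the part of Ergic1 or Gm8225 transcripts in the Dusp1 counts was not tested.

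Dusp5 encodes an ERK-specific nuclear phosphatase (chr19:53529109-53542431, plus strand). Its level was 13.5, 11.1, 16.6 and 12.1 CPM in libraries 1 to 4 labelled CD25 KO, against 13.3, 9.91, 12.2 and 12.9 CPM in WT libraries 1 to 4. The groups overlapped, and the log2 fold change of 0.14 ± 0.17 had a 95% interval of -0.23 to 0.52. An antisense gene, AC137853.2, shares 547 of its 2473 exon bases and had 22 to 55 counts per library, so a small part of either count may belong to the other. Dusp4 encodes another ERK and JNK phosphatase and lies at chr8:34807297-34819894 (plus strand). It had 16, 1, 6 and 0 counts in libraries 1 to 4 labelled CD25 KO, against 0, 5, 8 and 14 counts in WT libraries 1 to 4. A count of 0 allows up to 3 counts, or 0.0541 CPM in library 4 labelled CD25 KO and 0.0672 CPM in WT library 1, for counting error only. The gene did not pass the filter on low counts and was not tested, and at this depth a difference between the groups was not detectable.

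Dusp10 encodes a phosphatase that prefers p38 and JNK to ERK (chr1:184013302-184075636, plus strand). It was at 53.8, 58.7, 58.8 and 51.8 CPM in libraries 1 to 4 labelled CD25 KO, against 59.6, 65.7, 59.6 and 43.5 CPM in WT libraries 1 to 4. WT libraries held both the highest and the lowest value. The log2 fold change was -0.03 ± 0.14, with a 95% interval of -0.34 to 0.27, and its sign turned under some settings. After Dusp6 it had the highest mean of the 10 genes per kilobase over the 8 libraries. In libraries labelled CD25 KO alone Dusp2 had the higher mean, at 20.6 against 18.3 CPM per kb. Relative to its mean, the level of Dusp10 varied least of the 10 genes between libraries labelled CD25 KO, with an SD of 6.30% of the mean. Between WT libraries its SD was 16.7% of the mean, and Dusp2 at 9.20%, Spry2 at 10.7% and Dusp5 at 12.4% varied less.

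The Sprouty and Spred genes were all expressed at low levels. Spry1 was at 0.660, 0.183, 0.281 and 0.919 CPM in libraries 1 to 4 labelled CD25 KO, against 0.179, 0.159, 0.290 and 0.269 CPM in WT libraries 1 to 4. Libraries 1 and 4 labelled CD25 KO were above all WT libraries, and libraries 2 and 3 were within the WT range. The log2 fold change, the largest of the 9 genes tested, was 1.18 ± 0.56 with a 95% interval of -0.08 to 2.44, and it rests on 8 to 51 counts per library. Without library 4 labelled CD25 KO it was 0.73. Gm42922, which shares 710 exon bases with Spry1 on the other strand, had at most 3 counts in any library.

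Spry2 was at 2.91, 1.78, 3.13 and 2.02 CPM in libraries 1 to 4 labelled CD25 KO, against 2.35, 2.10, 2.30 and 1.85 CPM in WT libraries 1 to 4, with a log2 fold change of 0.19 ± 0.23. Libraries 1 and 3 labelled CD25 KO were above the WT range, and library 2 was below it. Spred1, whose human gene is mutated in Legius syndrome, was at 2.60, 2.97, 2.52 and 3.06 CPM in libraries 1 to 4 labelled CD25 KO, against 3.79, 3.19, 3.75 and 1.90 CPM in WT libraries 1 to 4. WT libraries 1 to 3 were above all libraries labelled CD25 KO and WT library 4 below them, and the log2 fold change was -0.18 ± 0.24. Spred2 was at 2.10, 1.39, 2.02 and 2.22 CPM in libraries 1 to 4 labelled CD25 KO, against 1.52, 1.73, 1.07 and 3.19 CPM in WT libraries 1 to 4. WT libraries again held both extremes, and the log2 fold change was 0.04 ± 0.33 with a sign that turned under some settings.

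Of the 10 genes, 9 passed the filter on low counts and were tested among 18884 genes. Of these 9, 7 were higher in libraries labelled CD25 KO, against 50.4% of all genes tested, with a median log2 fold change of 0.19 against 0.00 over all genes. Dusp6 and Dusp2 were higher without overlap of the groups, as were 2.62% of all genes tested, while 4.17% were lower without overlap and none of the 9 genes was among them. After Benjamini-Hochberg adjustment edgeR called none of the 9, and 0% of all genes. The smallest adjusted p by edgeR, 0.391, was shared by Dusp6, Dusp2 and many other genes, down to at least rank 2029 by p. At an unadjusted p under 0.05 the count was 2 of the 9, both higher, and 2388 of all genes, with 5.53% of all genes higher and 7.11% lower. DESeq2 called 6 genes (0.0318%), Dusp6 among them, and limma-voom called 0. Because Dusp6 chose the set on this contrast, nothing is read from its calls.

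**Figure D3:**
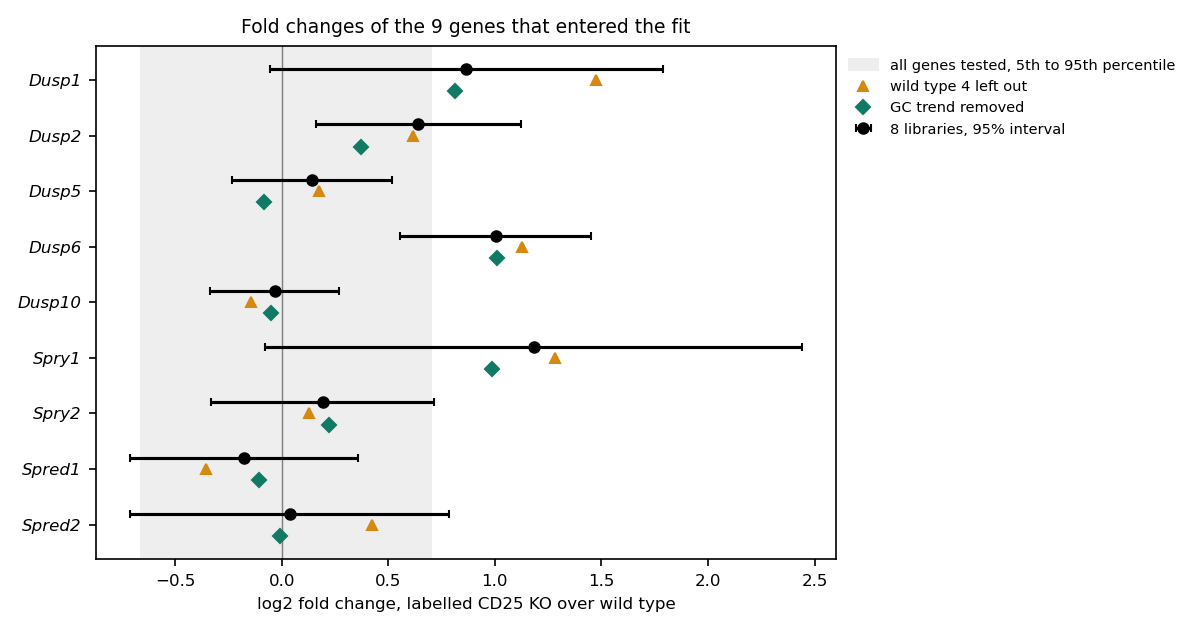
Log2 fold change, labelled CD25 KO over WT, of the 9 tested genes, with 95% intervals from edgeR (circles, n = 4 libraries per group), without WT library 4 (triangles) and with the GC trend removed (diamonds); the grey band is the 5th to 95th percentile of all genes. The intervals of Dusp6 and Dusp2 lie above 0, and Dusp1 moved most, to 1.47, when that library was left out.

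WT library 4 moved several of these values. Without it, edgeR called 363 of 19506 genes (1.86%), 358 of them (1.84%) higher in libraries labelled CD25 KO, and Dusp6 and Dusp1 were among them. The log2 fold change of Dusp6 was then 1.13 ± 0.20 and that of Dusp1 1.47 ± 0.28, each with an adjusted p of 0.0493 by edgeR. That was the smallest adjusted p of this fit, so all of its calls lay just under the threshold of 0.05. Spred2 moved to 0.42 ± 0.28 and Spred1 to -0.36 ± 0.20, neither of them called. WT library 4 also held the most haemoglobin counts, at 0.8288% of its total, against 0.0261% to 0.226% in libraries labelled CD25 KO and 0.296% to 0.383% in the other WT libraries. The part of these red cell transcripts in the results was not tested.

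The libraries also differed with the base composition of the genes. At 60% GC the trend of a library's log2 level against GC content stood at 0.38, 0.03, 0.21 and 0.15 in libraries 1 to 4 labelled CD25 KO, against -0.25, -0.65, -0.14 and 0.27 in WT libraries 1 to 4. GC content was taken over all annotated transcripts of a gene together, so bases shared by several transcripts count more than once. Dusp6 has 48.9% GC, at the 50.1 percentile of genes tested, and there the trend was only -0.08 to 0.05. With the trend removed its log2 fold change was 1.01. Dusp2 has 57.0% GC, at the 90.3 percentile, and its log2 fold change was 0.37 ± 0.23 with the trend removed. Dusp5 has 56.7% GC, and its log2 fold change was -0.08 with the trend removed, the other direction.

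The 10 genes did not vary together from library to library. Library 3 labelled CD25 KO was the highest of its group for 5 of the 10 genes, among them Dusp6, Dusp2 and Dusp5, while library 4 was highest for Spry1 and library 1 for Dusp1. WT library 4 was the highest of its group for 4 of the 10 and the lowest of all 8 libraries for Dusp10 and Spred1. As a measure of likeness to Dusp6, each gene's log2 CPM was centred on its mean over the 8 libraries, and the root mean square of its difference from Dusp6 was taken. Among the other 9 genes Dusp2 was nearest at 0.34, followed by Dusp5 at 0.45, Dusp1 at 0.48 and Spry2 at 0.50. Dusp4 was farthest at 1.29, and the median over 8795 genes at 5 CPM or more was 0.58. The 8 libraries share their groups and their composition, so this measure takes in the group difference that chose Dusp6.

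Of those 8795 genes, the 5 nearest to Dusp6 were Dhx37 at 0.10, Ncdn at 0.16, Insr at 0.16, Arhgap17 at 0.18 and Prickle3 at 0.19. Dhx37, an RNA helicase gene of ribosome assembly, was at 27.4, 27.5, 41.8 and 27.3 CPM in libraries 1 to 4 labelled CD25 KO, against 18.4, 11.6, 17.8 and 20.7 CPM in WT libraries 1 to 4. Insr, the insulin receptor gene, was at 67.3, 42.0, 73.8 and 45.2 CPM in libraries 1 to 4 labelled CD25 KO, against 33.2, 22.7, 29.4 and 36.5 CPM in WT libraries 1 to 4. In both genes, as in Dusp6, library 3 labelled CD25 KO was the highest and WT library 2 the lowest. Each of the other 9 feedback genes was farther from Dusp6 than these 5. For Dusp2, Dusp5 and Dusp10, at 5 CPM or more, this follows from the choice of the 5 nearest. The remaining feedback genes were below 5 CPM and were not candidates, so their distances rest on lower counts.

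**Figure D4:**
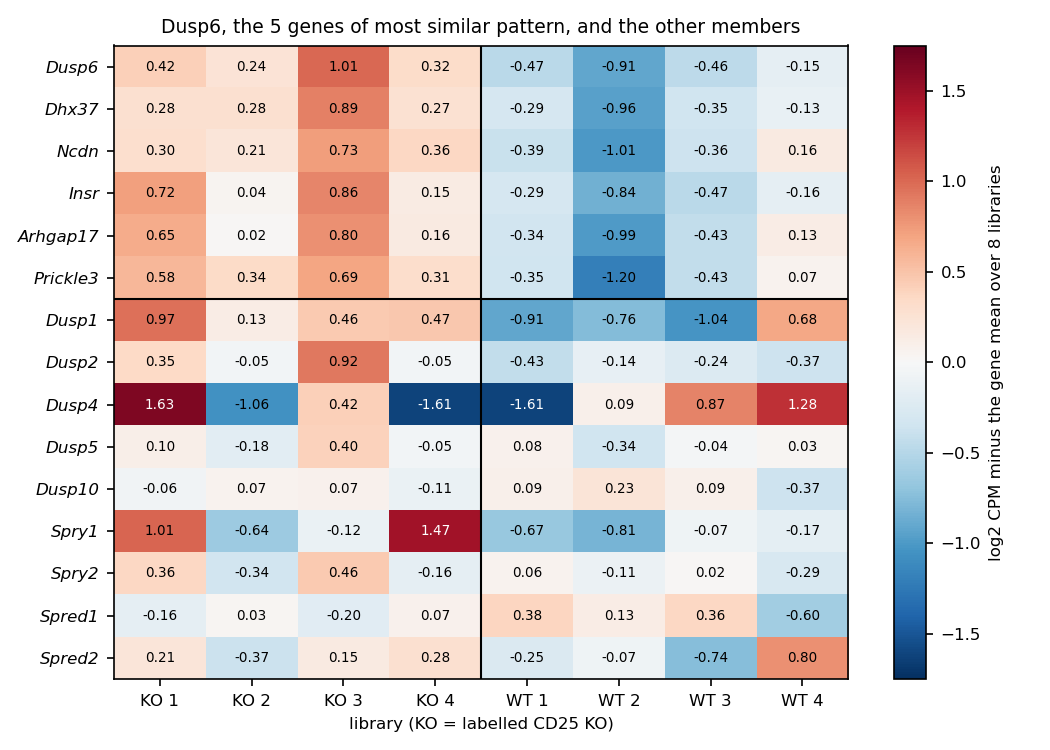
Log2 CPM (prior count of 2) minus the gene's mean over 8 libraries, for Dusp6, the 5 genes nearest to it and the other 9 feedback genes, with libraries labelled CD25 KO on the left and WT on the right. The top 6 rows, picked for likeness to Dusp6, have WT library 2 lowest, as do Dusp5 and Spry1 below them; Dusp4 rests on 0 to 16 counts per library.

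Other genes of the pathway were counted from fixed lists, and in each list edgeR called 0 genes in either direction, as over all genes. Over all genes tested, 50.4% were higher in libraries labelled CD25 KO. Of 10 other MAP kinase phosphatases 7 were tested, with 5 higher and 2 lower and a median log2 fold change of 0.31. The direction of this median turned without library 1 labelled CD25 KO, to -0.07, and with the GC trend removed and WT library 4 left out, to -0.10. Dusp3, a small phosphatase of ERK and JNK, averaged 6.97 ± 0.746 CPM in libraries labelled CD25 KO and 5.04 ± 0.202 CPM in WT libraries (SD, n = 4 each), without overlap. Dusp16, which prefers JNK and p38, averaged 10.3 ± 3.25 CPM in libraries labelled CD25 KO and 6.49 ± 1.51 CPM in WT libraries, with overlap. Of 15 other inhibitors of the Ras-ERK relay 12 were tested, with 8 higher and 4 lower and a median of 0.25. Of these, Rasa3, a GTPase-activating protein gene, had a log2 fold change of 0.58 ± 0.23, and Cbl, a ubiquitin ligase gene of receptor turnover, 0.37 ± 0.15.

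Upstream, 15 receptor and adaptor genes had 13 higher and 2 lower and a median log2 fold change of 0.21. The 2 with the smallest p were Vav1, an exchange factor, at 0.25 ± 0.11, and Rasgrp1, which loads Ras with GTP in lymphocytes, at 0.45 ± 0.26. The 16 core kinases and GTPases had 11 higher and 5 lower and a median of 0.07, which turned to -0.02 with upper quartile factors. Map2k2, which encodes a MEK kinase, was at 0.57 ± 0.42 and was high in WT library 4 as well. The 14 kinases of the JNK and p38 branches were all higher, against 50.4% of all genes tested, with a median of 0.26. Of these, 2 were higher without overlap, against 2.62% of all genes tested. Mapkapk3, a kinase that p38 activates, averaged 37.3 ± 3.57 CPM in libraries labelled CD25 KO and 26.9 ± 3.86 CPM in WT libraries. Mapk11, a p38 kinase, had a log2 fold change of 0.75 ± 0.23, with overlap.

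Downstream, 12 transcription factor genes regulated by ERK had 9 higher and 3 lower, with a median log2 fold change of 0.21. Etv5, an ETS factor, was at 16.6, 14.004, 17.1 and 13.5 CPM in libraries 1 to 4 labelled CD25 KO, against 7.80, 4.62, 8.46 and 15.8 CPM in WT libraries 1 to 4, so that WT library 4 lay within the range of the libraries labelled CD25 KO. Ets2 had a log2 fold change of 0.69 ± 0.31. Of 20 listed ERK target genes 18 were tested, with 16 higher and 2 lower and a median of 0.36. Of these, 2 were higher without overlap, against 2.62% of all genes tested. Fos, Fosb, Egr1 and Ier2 are also in the list of handling and stress response genes below, so the lists are not independent. Fos, at 1.73 ± 0.84, and Fosb, at 1.38 ± 0.60, both with overlap, had the largest log2 fold changes of the ERK target list. Epha2, a receptor kinase gene, averaged 42.9 ± 4.26 CPM in libraries labelled CD25 KO and 27.2 ± 5.94 CPM in WT libraries. Mcl1, a survival gene of the BCL2 family, averaged 112 ± 10.2 CPM in libraries labelled CD25 KO and 90.2 ± 8.57 CPM in WT libraries, with a log2 fold change of 0.31 ± 0.11.

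**Figure D5:**
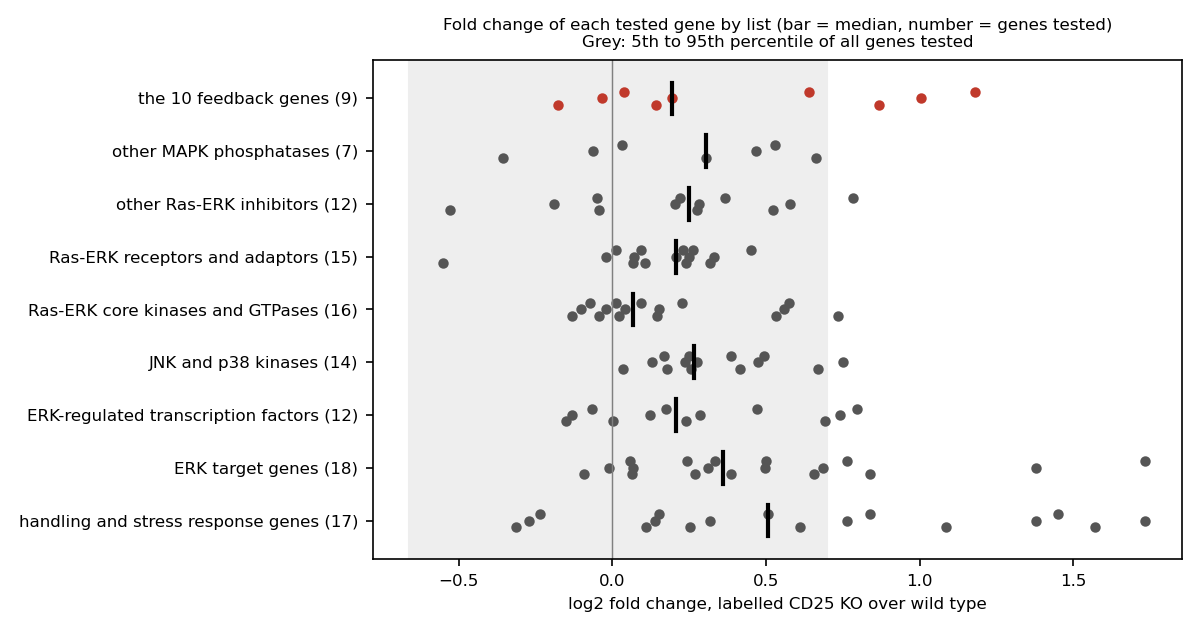
Log2 fold change, labelled CD25 KO over WT, of each tested gene by list (1 point a gene, bar = median), with the grey band from -0.66 to 0.70, the 5th to 95th percentile of all genes tested. The medians run from 0.07 for the core kinases to 0.51 for the handling and stress response genes.

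A list of 18 genes that rise when cells are handled or stressed had 17 tested, with 14 higher and 3 lower and a median log2 fold change of 0.51. This median was 0.17 without library 3 labelled CD25 KO and 0.99 without WT library 4. The list had 0 genes higher and 2 lower without overlap of the groups, against 2.62% and 4.17% of all genes tested. The 2 lower were the chaperone genes Hsp90aa1 at -0.31 ± 0.12 and Hspe1 at -0.27 ± 0.12. Hspa8, another chaperone gene, was at -0.24 ± 0.11 with overlap. The heat shock genes Dnajb1 at 0.51 ± 0.33, Hspa1b at 0.25 ± 0.69 and Hspa1a at 0.11 ± 0.77 were in the other direction, also with overlap. Junb, a subunit of the AP-1 factor, was at 159, 64.0, 184 and 104 CPM in libraries 1 to 4 labelled CD25 KO, against 27.4, 18.6, 36.3 and 105 CPM in WT libraries 1 to 4. Klf4 averaged 4.44 ± 2.30 CPM in libraries labelled CD25 KO and 2.09 ± 0.433 CPM in WT libraries. The median deviation of the list from its mean over the libraries, on the log2 scale, was 0.56, -0.07, 0.70 and -0.09 in libraries 1 to 4 labelled CD25 KO, against -0.17, -0.35, -0.48 and 0.09 in WT libraries 1 to 4. The highest deviations were those of libraries 3 and 1 labelled CD25 KO, which also had the highest Dusp6 levels. Among WT libraries the highest was that of WT library 4, which had the highest Dusp6 and Dusp1 levels of its group. Libraries 2 and 4 labelled CD25 KO had lower deviations than WT library 4 but higher Dusp6, at 215 and 226 against 163 CPM. WT library 3 had the lowest deviation of all, with Dusp6 at 132 CPM, above WT library 2 at 96.7 CPM. The part of handling in the levels of the 10 feedback genes was not tested.

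Markers of other blood cells differed in direction from list to list. Of 10 natural killer cell markers 9 were lower, and their summed level was 10.8 to 38.5 CPM in libraries labelled CD25 KO and 41.9 to 61.0 CPM in WT libraries. Of 10 neutrophil markers 10 were lower, with sums of 118 to 488 CPM in libraries labelled CD25 KO and 258 to 561 CPM in WT libraries. Of 9 tested erythroid markers 8 were lower. Of 6 plasma cell markers 5 were tested, with 3 higher and 2 lower and a median log2 fold change of 0.54. The higher ones were Sdc1 at 0.65 ± 0.41, Xbp1 at 0.68 ± 0.53 and Prdm1 at 0.54 ± 0.32. The lower ones were Jchain at -0.23 ± 1.17 and Irf4 at -0.09 ± 0.14, and Tnfrsf17 was not tested. Sdc1 was at 89.05 CPM in WT library 4, within the 49.9 to 106 CPM of libraries labelled CD25 KO. Of 10 T cell markers 7 were tested, with 4 higher and 3 lower and a median of 0.09. The T cell marker Cd3e, which was not tested, was near 0 throughout, at up to 0.108 CPM in libraries labelled CD25 KO and up to 0.126 CPM in WT libraries. None of these lists had a gene called by edgeR, and the part of these cells in the levels of the 10 feedback genes was not tested.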

How the data were processed

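RNA from pro-B cells was isolated with Trizol and made into libraries with a SMARTER mRNA-Seq kit, per the labels' protocols. The deposited values are raw counts per gene, which the authors made from paired reads and the exons in GENCODE M25 using featureCounts 2.0.1, with multi-mapping reads counted and no strand option, per the file headers. The other deposited column used, the exon length in bases, served for levels per kilobase. STAR 2.7.7a, GATK 4.1.9.0 and the mm10 build are named in the submitters' processing notes, without the role of GATK. Reads of near-identical genes and of overlapping or antisense genes may be split or mixed.

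Gene symbols came from a GENCODE annotation of GRCm38, which named 55227 of 55487 identifiers. That annotation is of another release than the one used for counting. Exon bases shared by overlapping genes and the GC content of genes came from the same annotation. Genes were filtered with edgeR's filterByExpr, normalised by TMM and tested in edgeR 4.0.16 (R 4.3.3) with a quasi-likelihood fit of the 8 libraries by group, with Benjamini-Hochberg adjustment over 18884 genes at 0.05. limma 3.58.1 and DESeq2 1.42.0 were alternatives, as were other scalings and filters, a replicate block and leaving out each library. The procedure was tested on simulated data, drawn gene by gene without shifts of whole libraries such as the GC trend. That test therefore does not cover such shifts. No libraries of a group agreed to within counting noise: among 12 pairs, chi-square divided by its degrees of freedom was at least 25.2. The genes and lists were chosen with earlier results of these data known. Named are the 10 genes and Il2ra, in each list called genes or else the 2 with the smallest p, the 5 genes nearest to Dusp6 among those at 5 CPM or more, and genes that mark cell types, sex or handling. Counting limits cover counting error only. Some genes that this rule names are not reported here.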

Additional observations from a re-analysis of the deposited data

Results flagged for a closer look

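Dusp1 in WT library 4, at 2.51 CPM, lay far from the other 3 WT libraries, at 0.736 to 0.899 CPM, and exceeded Dixon's 95% critical value for 4 samples. The 4 libraries labelled CD25 KO were at 1.70 to 3.07 CPM. It was the only such value among 20 groups of 4 libraries tested, where chance gives about 1 in 20.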

How the results depend on the processing

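Across 19 alternatives and 170 values of the 9 genes tested, 154 kept their direction and their side of the threshold, and 6 of the 9 genes never changed direction. The number of genes called was 0 in the fit of all 8 libraries, 6 by DESeq2, 0 to 363 when 1 library was left out (363 without WT library 4) and 979 with the GC trend removed and WT library 4 left out. The GC alternatives were chosen after seeing the data. Dusp6 was called by DESeq2 at 1.01 (adjusted p 0.0395 by DESeq2), without WT library 4 at 1.13 and, after removal of the GC trend too, at 1.11. Dusp1 was called at 1.47 without WT library 4 and at 1.36 after removal of the GC trend too. Dusp5 reversed to -0.081 with the GC trend removed and to -0.13 with WT library 4 also left out. Dusp10 reversed to 0.0085 with no filter on low counts. Spred2 reversed to -0.036 with upper quartile factors and to -0.0063 with the GC trend removed. The causes were not tested.

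Leaving out 1 library at a time gave log2 fold changes of 0.80 to 1.13 for Dusp6, 0.67 to 1.47 for Dusp1, 0.39 to 0.80 for Dusp2, 0.02 to 0.27 for Dusp5, 0.73 to 1.498 for Spry1, 0.06 to 0.36 for Spry2, -0.36 to -0.08 for Spred1, -0.14 to 0.077 for Dusp10, -0.15 to 0.42 for Spred2 and -0.27 to 0.0071 for Il2ra. The last 3 changed sign. The stricter filter gave no value for Spry1.

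With the replicate number as a block, 0 genes were called and Dusp6 was at 0.99. Same-numbered libraries correlated at 0.10, 0.32, 0.20 and -0.11 in their deviations from the group means, and only libraries 2 and 3 labelled CD25 KO correlated best with their own number, so the numbers were not taken as a pairing. At 50 counts in all, Dusp4 was limited by depth.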
